A study of Mus musculus with 8 samples.

Results

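The genes described are 10 genes of insulin and insulin-like growth factor (IGF) signalling, taken by name from 24011 named genes on the arrays: the ligand gene Igf1, the receptor genes Igf1r and Insr, the receptor substrate genes Irs1 and Irs2, and the binding protein genes Igfbp3, Igfbp4, Igfbp5, Igfbp6 and Igfbp7. All 10 were measured, each by 1 probe set. RNA came from bone marrow of adult C57Bl6 mice for which no genotype other than the strain and no treatment are given. Mature cells positive for blood lineage markers (Lin+) were measured on 4 arrays, and HSC-enriched cells on another 4. HSC-enriched cells are lineage-negative, Sca-1-positive, Kit-positive (LSK) cells gated as CD105+ and CD48-negative by the sample labels, where the design text names CD150 in place of CD105. Neither the number of mice behind a sample nor any pooling is given, so the p-values cover the spread among these arrays alone, and that spread may be technical.

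IGF1 and insulin bind related receptor tyrosine kinases, IGF1R and INSR. The activated receptor phosphorylates the docking proteins IRS1 and IRS2, which recruit PI3-kinase and so activate AKT and restrain FoxO transcription factors. Secreted IGF-binding proteins hold IGFs in the extracellular space and set how much reaches the receptor. In bone marrow, stromal cells and macrophages are known sources of IGF1, and the pathway is studied as a regulator of stem cell quiescence and growth.

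All 8 measured HSC marker genes were higher in HSC-enriched cells, with a mean level of 8.68 to 8.72 on the 4 HSC-enriched arrays and 5.34 to 5.48 on the Lin+ arrays (log2 signal). The arrays were not equal in transcripts of other cells. For 12 neutrophil genes the mean level of HSC-enriched replicates 3 (9.16) and 4 (9.08) exceeded that of replicates 1 (6.60) and 2 (6.47), and Lin+ arrays ranged from 11.56 to 11.77. Replicate 3 was also the highest HSC-enriched array in the mean of B and plasma cell genes (6.68, the others 5.22 to 5.56). The same held for erythroid genes (6.00, the others 4.83 to 5.39) and monocyte genes (5.73, the others 4.82 to 5.26). Of 12 genes of mesenchymal stroma, the cells best known for secreting IGF-binding proteins, 8 lay at or under a background guide, and their mean was 4.10 to 4.21 on HSC-enriched and 4.16 to 4.26 on Lin+ arrays. The guide, 5.09, is the 95th percentile of the mean levels of 1091 olfactory receptor genes, which marrow cells are not expected to transcribe. Levels are log2 values, so a difference of 1 is a 2-fold change, and levels of different genes are not compared because probe sets differ in brightness.

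The stretches of 150 bases before the RefSeq start (GRCm38.p6, written 5' to 3' in the direction of transcription) are shown for the 3 genes that differed between the populations, and for Irs2 as the close relative of Irs1. Capitals mark matches, searched on both strands. The letters TATAAA are called a TATA box here. The letters GGGCGG are called a GC box. The letters CACGTG are called an E-box. The letters TGTTTTG, the core of insulin response elements, are called the insulin response core. A forkhead motif, the letters TGTTTAC, was searched in the same way and was in none of the 4. Igf1r lies at chr7:67952107-67952256 (plus strand), Igfbp4 at chr11:99041094-99041243 (plus), Irs1 at chr1:82291440-82291589 (minus) and Irs2 at chr8:11008930-11009079 (minus).
Igf1r: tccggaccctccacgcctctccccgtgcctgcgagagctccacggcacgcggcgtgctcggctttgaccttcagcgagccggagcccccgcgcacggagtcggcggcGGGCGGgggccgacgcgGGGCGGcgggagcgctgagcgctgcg
Igfbp4: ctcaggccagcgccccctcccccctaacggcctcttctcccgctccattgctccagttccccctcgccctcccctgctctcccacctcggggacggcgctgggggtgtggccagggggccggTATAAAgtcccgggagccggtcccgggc
Irs1: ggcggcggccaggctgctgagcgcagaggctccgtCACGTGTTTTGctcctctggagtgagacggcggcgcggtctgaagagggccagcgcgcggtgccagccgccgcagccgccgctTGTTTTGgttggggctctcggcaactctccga
Irs2: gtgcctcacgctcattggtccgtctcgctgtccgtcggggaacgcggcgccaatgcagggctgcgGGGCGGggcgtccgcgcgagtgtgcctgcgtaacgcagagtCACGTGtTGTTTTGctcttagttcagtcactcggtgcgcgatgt

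Irs1 and Irs2 each held an E-box and an insulin response core close together, and in Irs1 the letters of the E-box overlap those of the first insulin response core. Of 32851 RefSeq promoter windows of this length, 31 held both, or 0.0944%. The pair counted is the one that Irs1 and Irs2 hold, so its share is a description with no test. The E-box was in 4.30% of windows, the insulin response core in 2.94%, the GC box in 28.62%, the TATA box in 7.57% and the forkhead motif in 1.80%. Of the 9 members with an entry, Irs1 and Irs2 were the only 2 with both. The Igf1r stretch held 26 CpG dinucleotides and 2 GC boxes and no TATA box, and that of Igfbp4 held 11 CpG and 1 TATA box. These matches describe letters in a window and say nothing of binding.

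In HSC-enriched cells Igf1r, the IGF1 receptor gene, was 1.42-fold higher and Igfbp4, a binding protein gene, 1.81-fold higher, while Irs1, a receptor substrate gene, was lower (4.68 ± 0.09 against 5.24 ± 0.21, SD, n = 4), near background. The other 7 genes, Igf1, Insr, Irs2, Igfbp3, Igfbp5, Igfbp6 and Igfbp7, did not pass the test. The test was limma's moderated test over all 24011 genes with a Benjamini-Hochberg adjusted p under 0.05. Thus 2 of 10 members were called higher, where 15.5% of all genes were, and 1 of 10 lower, where 12.4% of all genes were, or 27.8% in either direction. The median difference of the 10 was 0.00 against 0.02 over all genes. Groups did not overlap for 4 of the 10, Irs2 being the fourth, against 28.9% of all genes. With HSC-enriched replicates 1 and 3 left out, a setting chosen after seeing the data, 0 members were called higher (Igf1r adjusted p = 0.083, Igfbp4 0.075, limma). Their differences were then 0.49 and 0.76, against 0.50 and 0.85 on all arrays. With replicates 3 and 4 left out, 0 were called lower (Irs1 adjusted p = 0.054, limma), and the Irs1 difference was -0.52 against -0.56. Both settings test fewer arrays.

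**Figure D1:**
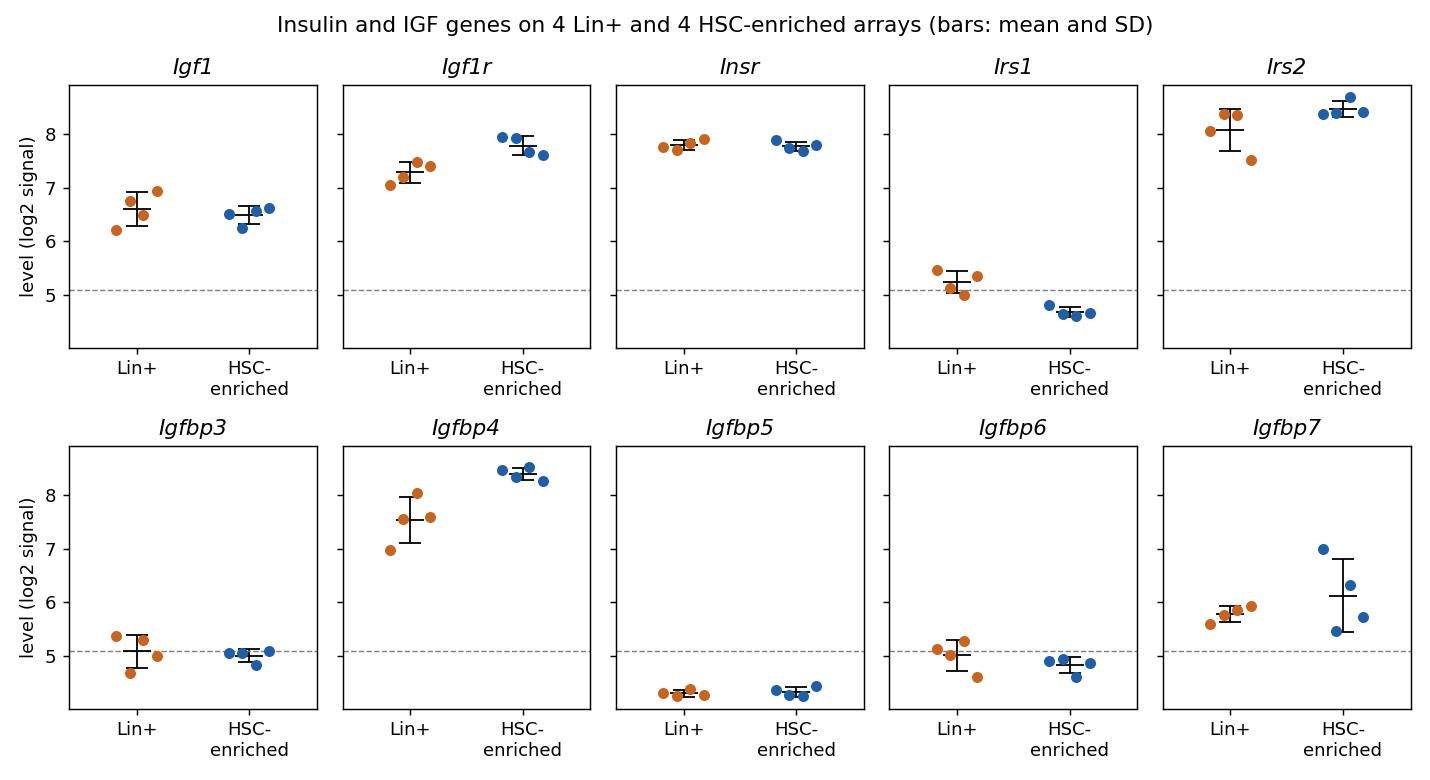
Level (log2 signal, vertical axis) of each of the 10 genes on 4 Lin+ (orange) and 4 HSC-enriched (blue) arrays; points are arrays, bars the mean and SD, and the dashed line the background guide of 5.09. Igf1r and Igfbp4 sit higher and Irs1 lower in HSC-enriched cells without overlap, and the HSC-enriched arrays of Igfbp7 spread from 5.46 to 6.99.

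Among the ligand genes none passed. Igf1, whose product is the main circulating and local IGF, was at 6.52, 6.24, 6.56 and 6.63 on HSC-enriched replicates 1 to 4 and at 6.22, 6.76, 6.50 and 6.94 on Lin+ replicates 1 to 4. The groups overlapped throughout, with a difference of -0.11 (95% interval -0.48 to 0.25, limma adjusted p = 0.69). All 8 arrays lay above the guide. On Lin+ arrays Igf1 had the same order as the mean of 10 marrow macrophage genes, at 5.91, 6.85, 6.40 and 6.87. The mean of 7 megakaryocyte genes had that order too, at 5.97, 6.36, 6.24 and 6.59, so the match is not particular to macrophages. Not every macrophage gene followed it: C1qb was highest on Lin+ replicate 2 (8.47) and Mertk lowest on Lin+ replicate 3 (5.17). On HSC-enriched arrays the macrophage mean was under the guide, at 4.93, 4.76, 4.94 and 4.96, and no order is read from it. In HSC-enriched cells, 8 of the 10 macrophage genes were called lower and 0 higher, with a median difference of -1.37, against -0.11 for Igf1. The part of macrophage RNA in the Igf1 signal was not tested. In bulk RNA, fewer cells of a type and less RNA per cell cannot be told apart.

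Igf2, the second IGF ligand gene, was at 5.06 ± 0.28 in HSC-enriched and 4.64 ± 0.23 in Lin+ cells (SD, n = 4), with 2 of 4 HSC-enriched arrays and all Lin+ arrays at or under the guide. Its difference of 0.41 did not pass (limma adjusted p = 0.093), though leaving out Lin+ replicate 1 gave a call (0.53, adjusted p = 0.033), as did quantile normalization (0.42, adjusted p = 0.047). Ins2, an insulin gene, was under the guide on every array, at 3.77 ± 0.14 and 3.93 ± 0.08.

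The receptor genes moved in different directions. Igf1r was at 7.94, 7.94, 7.67 and 7.62 on the HSC-enriched arrays and at 7.06, 7.21, 7.49 and 7.40 on the Lin+ arrays. Every HSC-enriched array was above every Lin+ array, the closest 2 being at 7.62 and 7.49. HSC-enriched replicates 3 and 4, the lower pair, were those with more neutrophil transcripts (means of 9.16 and 9.08 against 6.60 and 6.47), and without them the difference was 0.65 (limma adjusted p = 0.016). The part of neutrophil RNA in the Igf1r signal was not tested. The difference was 0.50 ± 0.13 (SE; 95% interval 0.21 to 0.80), with adjusted p = 0.015 (limma), and 0.041 to 0.048 without HSC-enriched replicate 1, HSC-enriched replicate 2, Lin+ replicate 1 or Lin+ replicate 2. Insr, the insulin receptor gene, was at 7.89, 7.75, 7.69 and 7.80 on the HSC-enriched arrays and at 7.76, 7.71, 7.84 and 7.91 on the Lin+ arrays. It was the steadiest of the members above the guide, with SDs of 0.08 and 0.09 and a difference of -0.02 (95% interval -0.24 to 0.19, limma adjusted p = 0.91).

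Igf2r encodes the receptor that clears IGF2 and sorts lysosomal enzymes and has no kinase. It was lower in HSC-enriched cells, at 6.59 ± 0.13 against 7.20 ± 0.23 (difference -0.61, limma adjusted p = 0.0057), and without HSC-enriched replicates 1 and 3 its adjusted p was 0.059. Insrr, the third gene of the insulin receptor family, was higher (5.29 ± 0.22 against 4.46 ± 0.23, adjusted p = 0.0019), with 1 HSC-enriched array and all Lin+ arrays at or under the guide.

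Differences taken between related genes on the same array cancel any shift shared by the whole array, and their size compares arrays, not the levels of the genes. Igf1r minus Insr was 0.01 ± 0.15 on HSC-enriched arrays and -0.52 ± 0.14 on Lin+ arrays (SD, n = 4), a shift of 0.53. Igf1r minus Igf2r was 1.31, 1.26, 1.27 and 0.96 on HSC-enriched arrays and -0.24, 0.30, 0.04 and 0.25 on Lin+ arrays, a shift of 1.12. The 3 pairs, with the substrates below, were chosen after their values were seen. Igf1r and Igf2r, like Irs2 and Irs1, already differed in opposite directions without overlap, so their shifts are a description with no test.

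**Figure D2:**
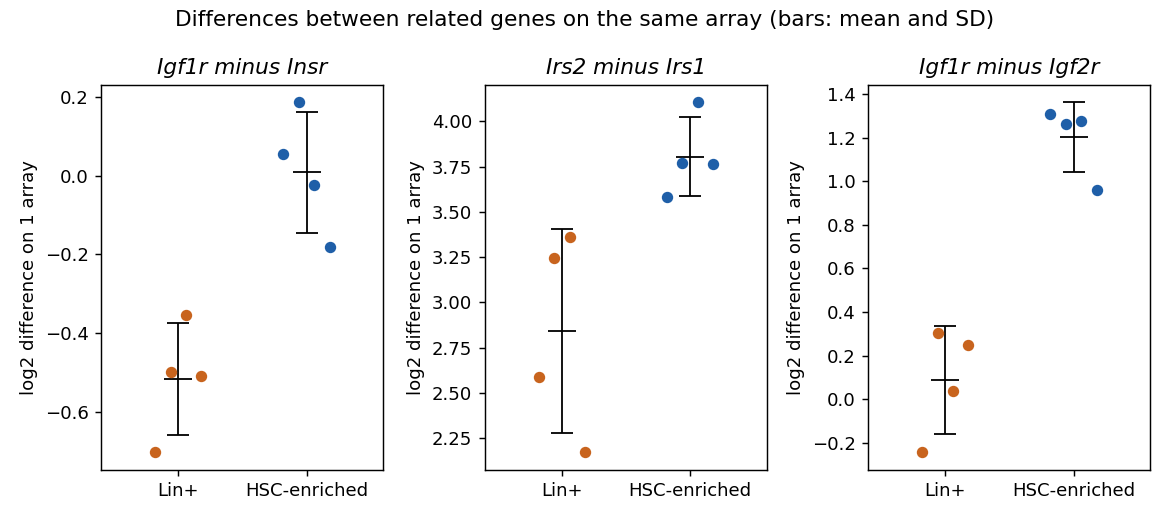
Difference in log2 signal between related genes on the same array (vertical axis) for 4 Lin+ (orange) and 4 HSC-enriched (blue) arrays, with mean and SD. In each of the 3 pairs the HSC-enriched arrays lie above all Lin+ arrays, and Irs2 minus Irs1 is the most spread, from 2.17 to 3.36 on Lin+ arrays.

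The substrates Irs1 and Irs2, docking proteins that carry the signal from either receptor to PI3-kinase, stood apart. Irs1 was at 4.81, 4.63, 4.60 and 4.66 on HSC-enriched arrays and at 5.47, 5.13, 5.00 and 5.36 on Lin+ arrays. The Lin+ arrays were all higher, with a difference of -0.56 ± 0.12 (SE; 95% interval -0.84 to -0.29, limma adjusted p = 0.0057). All 4 HSC-enriched arrays and 1 of the 4 Lin+ arrays lay under the guide, so the difference rests on values near background and no fold is given. Irs2 was at 8.39, 8.40, 8.70 and 8.43 on HSC-enriched arrays and at 8.06, 8.38, 8.37 and 7.53 on Lin+ arrays. HSC-enriched arrays were all higher, the closest 2 arrays being 8.389 and 8.378, and Lin+ replicate 4 stood well below the rest. The difference of 0.40 did not pass (95% interval -0.01 to 0.81, limma adjusted p = 0.15) and was 0.21 without Lin+ replicate 4 (adjusted p = 0.32). Irs2 minus Irs1 on the same array was 3.80 ± 0.22 in HSC-enriched and 2.84 ± 0.56 in Lin+ cells, a shift of 0.96.

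Among the binding protein genes Igfbp4 was called and the other 7 of the 8 measured were not. Igfbp4, whose product mainly inhibits IGF action and is released from IGF by the protease PAPP-A, was at 8.46, 8.33, 8.52 and 8.27 on HSC-enriched arrays and at 6.98, 7.55, 8.04 and 7.59 on Lin+ arrays. The groups did not overlap, and the HSC-enriched arrays were closer together (SD 0.12 against 0.43). Its difference was 0.85 ± 0.19 (SE; 95% interval 0.43 to 1.28, limma adjusted p = 0.0069), and between 0.67 (without Lin+ replicate 1) and 1.02 (without Lin+ replicate 3) when single arrays were left out. Lin+ replicates 1 and 3, lowest and highest in Igfbp4, were also lowest and highest in the mean of 7 monocyte genes, at 8.55 and 9.16, with 9.03 and 8.86 on replicates 2 and 4. Of these genes only F13a1 and Ms4a6c had those extremes, and Ly86 was highest on Lin+ replicate 1 (9.62). The mean of 8 endothelial genes had the same extremes, at 5.42 and 5.63, so the match is not particular to monocytes. Between the populations the monocyte genes and Igfbp4 went opposite ways: all 7 monocyte genes were called lower in HSC-enriched cells, with a median difference of -3.45, where Igfbp4 was higher. The part of cell makeup in this spread was not tested.

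Igfbp7 encodes a secreted protein of vessel walls with low affinity for IGFs. It was at 6.99, 5.46, 6.32 and 5.72 on HSC-enriched replicates 1 to 4 and at 5.59, 5.76, 5.86 and 5.92 on Lin+ arrays. HSC-enriched replicates 1 and 3 were above all Lin+ arrays, while replicate 2 was below all of them. The difference of 0.34 did not pass (95% interval -0.29 to 0.97, limma adjusted p = 0.46); it was 0.05 without HSC-enriched replicate 1, 0.56 without replicate 2 and -0.19 without replicates 1 and 3.

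The same 2 arrays were the higher HSC-enriched arrays in some vascular transcripts. Cdh5, which encodes the endothelial junction protein VE-cadherin, reached 6.34 and 6.67 there, against 5.05 and 5.52 on HSC-enriched replicates 2 and 4, and ranged from 5.90 to 6.57 on Lin+ arrays. Stab2, a scavenger receptor gene of sinusoidal endothelium, was at 5.78 and 5.70 against 4.51 and 4.96. Plvap, a gene of endothelial fenestrae, was at 5.62 and 5.79 against 5.06 and 5.45, and Kdr, a VEGF receptor gene, at 6.14 and 5.66 against 5.15 and 5.50. These were 4 of the 8 endothelial genes measured. The other 4 did not separate those arrays. Tie1 and Emcn, which HSCs share with endothelium, were at 7.78 to 8.47 and 8.40 to 8.86 on the HSC-enriched arrays. On HSC-enriched replicates 1 to 4, Pecam1 was at 7.84, 7.90, 7.99 and 7.99, and Flt4 at 5.60, 5.10, 5.09 and 5.38. Over all genes, replicates 1 and 3 were above replicates 2 and 4 for 16.7%. The mean of the 8 endothelial genes was 6.20 to 6.83 on HSC-enriched and 5.42 to 5.63 on Lin+ arrays. That gap rests on Tie1 (difference 3.17) and Emcn (4.22), the 2 of the 8 called higher. The other differences ran from -0.36 (Cdh5) to 0.39 (Stab2), with Pecam1 called lower (-0.35). The mean therefore does not show more endothelial RNA in HSC-enriched cells. The part of endothelial RNA in the Igfbp7 signal was not tested.

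**Figure D3:**
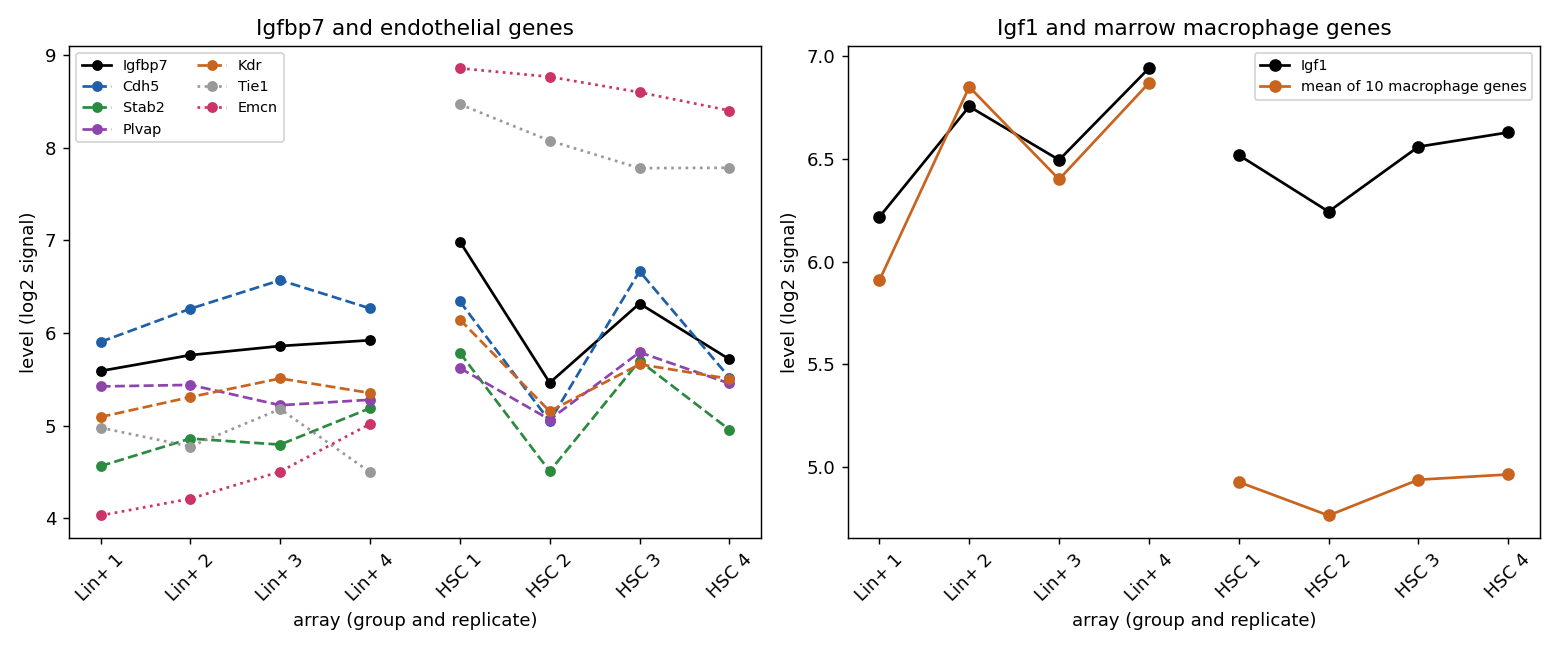
Level (log2 signal, vertical axis) on each array (horizontal axis, Lin+ then HSC-enriched replicates 1 to 4); lines only join arrays of 1 group and replicates have no order. Left, Igfbp7 and 6 of the 8 endothelial genes measured. Igfbp7 peaks at 6.99 and 6.32 on the HSC-enriched arrays with most Cdh5 and Stab2. Of the genes that did not separate those arrays, Tie1 and Emcn are drawn and Pecam1 and Flt4 are not. Right, Igf1 and the mean of 10 macrophage genes, where, among Lin+ arrays, both are lowest on replicate 1 (6.22 and 5.91).

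The remaining binding protein genes lay near background. Igfbp5, which binds extracellular matrix and is abundant in bone, was under the guide on all 8 arrays, at 4.32 ± 0.09 in HSC-enriched and 4.30 ± 0.06 in Lin+ cells (SD, n = 4). Igfbp3, the main carrier of IGFs in blood, was at 5.00 ± 0.12 and 5.08 ± 0.31, under the guide on all HSC-enriched and 2 of 4 Lin+ arrays. Igfbp6, which prefers IGF2, was at 4.83 ± 0.15 and 5.01 ± 0.29, likewise under the guide on all HSC-enriched and 2 of 4 Lin+ arrays. Their differences ran from -0.18 (Igfbp6) to 0.03 (Igfbp5). Igfbp1 (4.01 ± 0.08 and 3.92 ± 0.20), Igfbp2 (4.98 ± 0.19 and 4.96 ± 0.14) and Igfals (4.25 ± 0.33 and 3.89 ± 0.28), a partner of IGFBP3 in serum, did not pass either. At this brightness an absent transcript and a weak one cannot be told apart.

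By likeness of pattern, taken as the root mean square distance over 8 arrays after removing each gene's mean, the nearest genes to Igfbp4 were Dennd2d (0.08), Rrad (0.09) and Zfp146 (0.11). Those nearest to Irs1 were Tnk2 (0.07), A430078G23Rik (0.08) and Cyp2ab1 (0.09). The means of Cyp2ab1, 3.80 in HSC-enriched and 4.43 in Lin+ cells, were under the background guide. The distance takes in the group difference, at -0.58, -0.60 and -0.63 for these genes and -0.56 for Irs1. It therefore does not show shared regulation. Dennd2d was 7.16 ± 0.16 in HSC-enriched and 6.33 ± 0.40 in Lin+ cells, and Tnk2 5.47 ± 0.10 and 6.05 ± 0.22.

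The wider pathway, 74 other measured genes in 9 lists, was called in both directions in HSC-enriched cells: 13 of 74 higher, where 15.5% of all genes were, and 15 of 74 lower, where 12.4% were. The median difference was 0.07 against 0.02 over all genes, and groups did not overlap for 28 of the 74, against 28.9% of all genes. The counts of each list below stand against the same shares, and lists this short are described, not tested. With HSC-enriched replicates 1 and 3 left out, 9 were called lower. Of the genes around the binding proteins, 0 of 5 proteases and their inhibitors passed, among them Stc2 (difference 0.12) and Htra1 (-0.08). Among 11 relatives that carry an IGFBP domain, 2 rose and 0 fell. Ccn1, a matricellular protein gene, was 2.59-fold higher (6.78 ± 0.45 against 5.41 ± 0.25, limma adjusted p = 0.00076), and Kazald1 was higher at 5.85 ± 0.26 against 4.67 ± 0.25, with no fold given because all Lin+ arrays lay under the guide. Ccn5 (-0.01) and Ccn2 (-0.02) did not pass.

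Of 14 substrates and adaptors, the list that holds Irs1 and Irs2, 3 rose and 3 fell. Gab1, a docking protein gene that serves several receptor kinases, was 2.92-fold higher, at 7.10 ± 0.18 against 5.55 ± 0.14 (limma adjusted p = 7.1e-06). Its relative Gab2 rose by 0.61 and Sos1, a Ras activator gene, by 0.58. Nck1 and Grb2, adaptor genes, fell by 0.54 and 0.48. Within this list the calls of Sos1 and Grb2 were the least steady. That of Sos1 was lost without any of HSC-enriched replicates 1, 2 or 3 or Lin+ replicates 1, 2 or 3 (adjusted p = 0.065 to 0.104) and with arrays centred on their median (0.059), and its difference was 0.37 without HSC-enriched replicates 1 and 3 (adjusted p = 0.29). That of Grb2 was lost without HSC-enriched replicate 3 or 4 or Lin+ replicate 2 or 3 (0.056 to 0.063), and its difference was -0.29 without HSC-enriched replicates 3 and 4 (adjusted p = 0.21). Shc1 (-0.07) and Crkl (-0.04) did not pass.

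Of 16 brakes on the receptors, 8 were called lower (12.4% of all genes) and 3 higher (15.5%), with a median of -0.26. Several of the lower calls were unsteady. That of Grb14, with all 8 arrays under the guide and overlapping groups, had adjusted p = 0.0498 (limma) and was lost in 11 of 17 alternatives, among them leaving out HSC-enriched replicate 1, 2 or 4 or Lin+ replicate 1, 2 or 4 (0.088 to 0.125). That of Sh2b2 was lost in 8 of 19, among them leaving out HSC-enriched replicate 1 or 3 or Lin+ replicate 1 or 2 (0.054 to 0.068). That of Inpp5d was lost in 6 of 19, among them leaving out Lin+ replicate 3 (0.056), and that of Cblb in 4 of 19, none of which leaves out a single array. These 4 genes are named for their steadiness, after their values were seen. Grb10, an imprinted gene whose product binds the activated insulin and IGF1 receptors and dampens their signal, was at 8.42 ± 0.30 in HSC-enriched and 4.81 ± 0.35 in Lin+ cells (limma adjusted p = 7.5e-07), with 3 of 4 Lin+ arrays under the guide, so no fold is given. Socs3, a feedback inhibitor gene, was 1.95-fold higher (adjusted p = 0.0065, but 0.0595 without HSC-enriched replicates 3 and 4), and Ide, the gene of insulin-degrading enzyme, 1.70-fold higher. Ptpn1, which encodes the phosphatase PTP1B that dephosphorylates the insulin receptor, was 2.05-fold lower, at 7.34 ± 0.31 against 8.37 ± 0.17. Cbl, a ubiquitin ligase gene, fell by 0.88 and Grb7, a relative of Grb10, by 0.58. Ptpn2 (0.30) and Socs1 (-0.18) did not pass, though Ptpn2 did without HSC-enriched replicate 4 (0.41, adjusted p = 0.030).

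Downstream, 2 of 19 genes of the PI3-kinase, AKT, FoxO and mTOR cascade were called higher and 4 lower, against 15.5% and 12.4% of all genes. Pik3r1, a regulatory subunit gene of PI3-kinase, was 1.67-fold higher, and Pik3cb, a catalytic subunit gene, 2.78-fold lower (6.55 ± 0.20 against 8.03 ± 0.17). Foxo3 rose by 0.49 and Foxo1 fell by 0.76, while Pik3r3, counted among the 4, had all 8 arrays under the guide (3.34 ± 0.25 and 4.04 ± 0.12), where a difference cannot be read as a fall. Gsk3b (0.03) and Eif4ebp1 (0.07) did not pass. In the growth hormone axis, which drives Igf1 transcription in liver, 2 of 4 rose. Ghr, the growth hormone receptor gene, was at 5.41 ± 0.05 against 3.54 ± 0.18, with all Lin+ arrays under the guide and so no fold, and Stat5a, a transcription factor gene of the axis, was 1.87-fold higher. Jak2 (0.14) and Stat5b (0.08) did not pass.

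**Figure D4:**
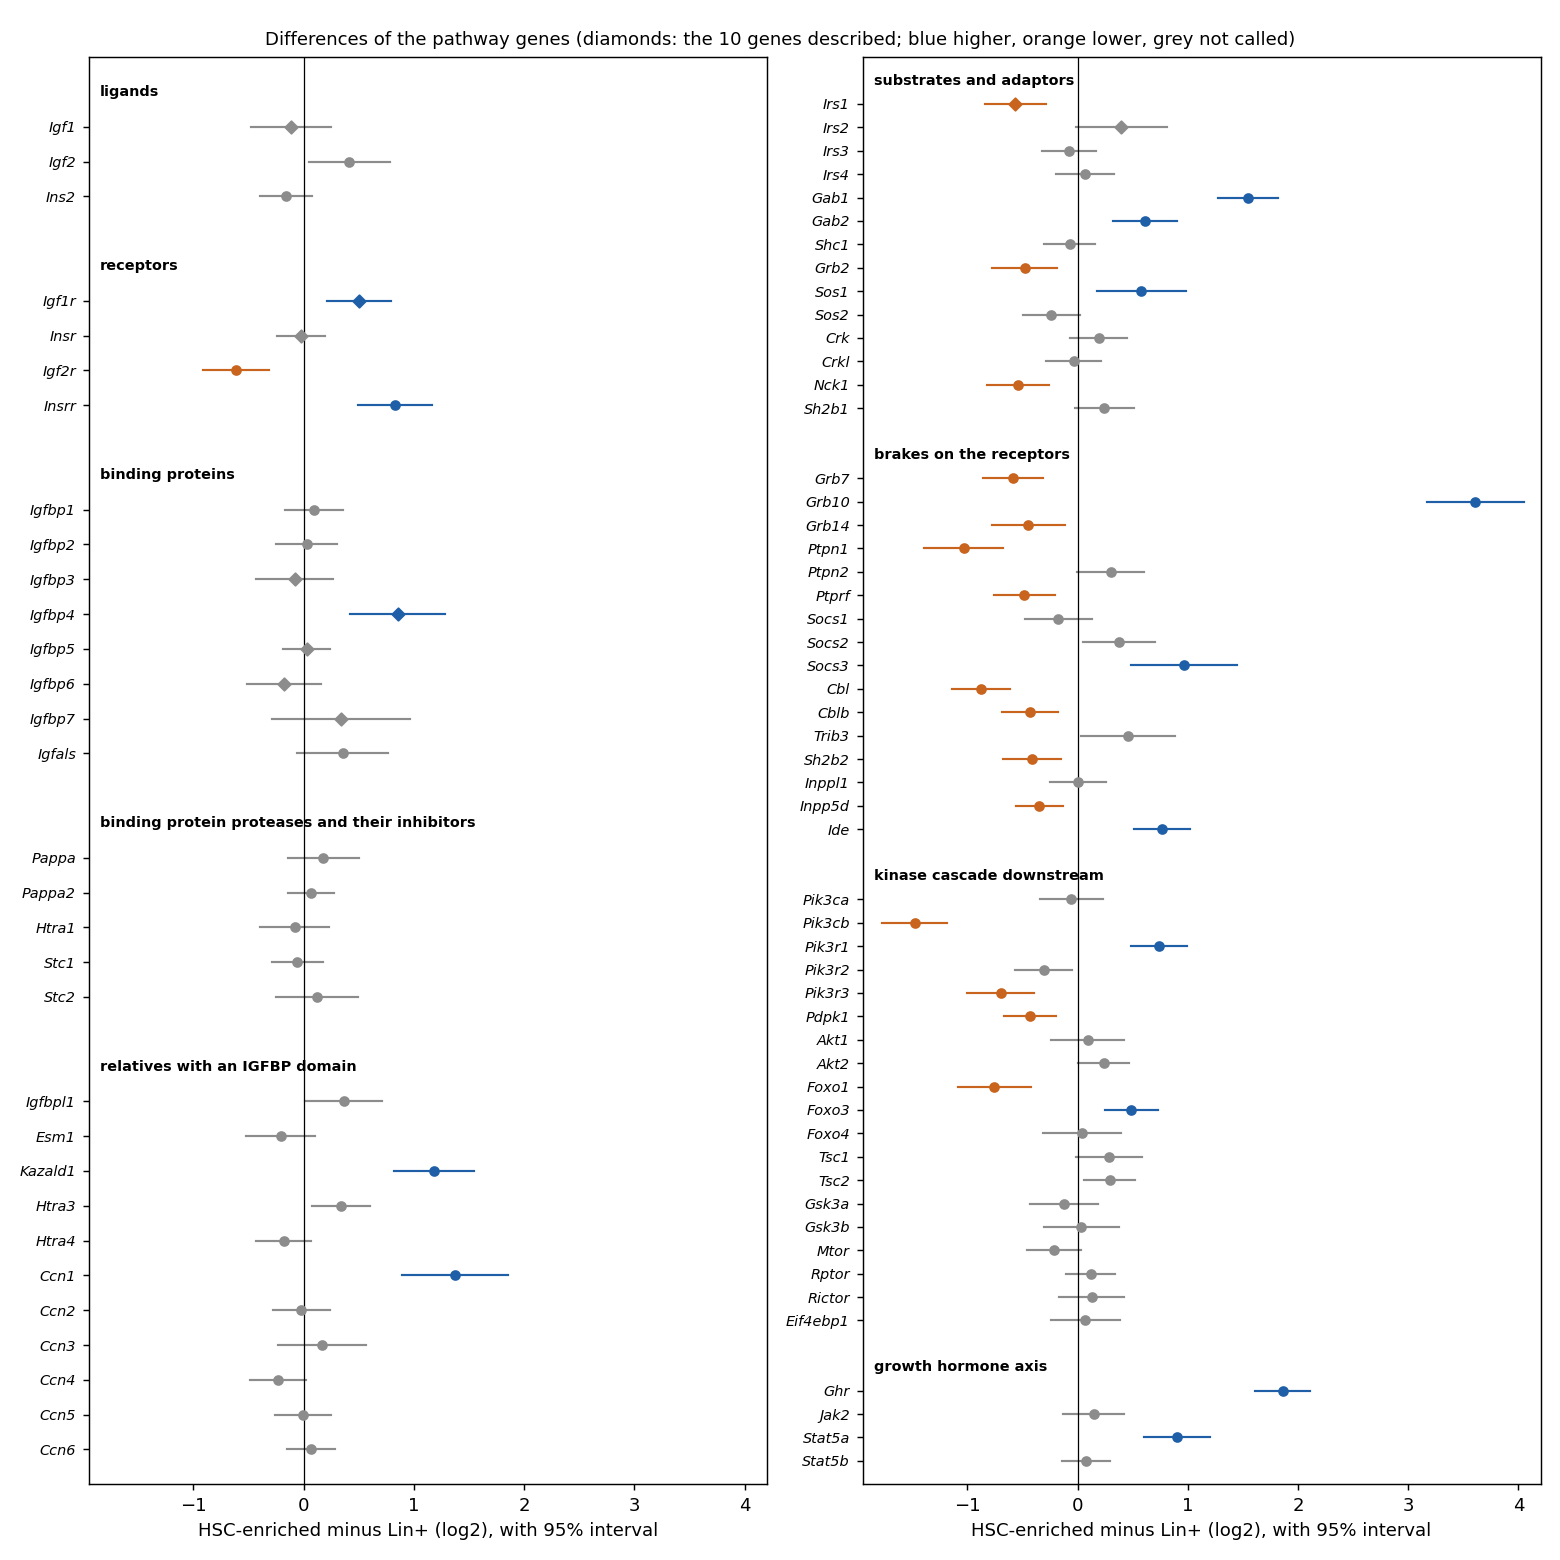
Difference HSC-enriched minus Lin+ (log2, horizontal axis) with its 95% interval for the 84 measured genes of 9 pathway lists; diamonds mark the 10 genes described, blue genes were called higher, orange lower and grey not called (limma). Grb10 lies farthest to the right at 3.61 and Pik3cb farthest to the left at -1.48.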

How the data were processed

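About 5 ng of RNA was amplified (Ovation Pico) for 1-colour MouseGene ST arrays (Affymetrix). The labels' protocols name versions 1.0 and 2.0 without saying which sample was on which. The authors deposited log2 values for 24973 probe sets per array. Per the submitters' processing notes, the tools were RMA and Partek (versions not stated). The sources used here do not give a build or a probe set definition. A log2 scale fits the range of 1.66 to 13.13 and array medians of 5.22 to 5.33, and no detection calls were used. Correlations between arrays over all genes were 0.978 to 0.986 within a group and 0.893 to 0.922 between groups.

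Probe sets were named by Entrez gene ID (24015 with 1 symbol, 0 with several, 958 with none), and 23922 symbols were updated through a RefSeq gene table (GRCm38.p6). For symbols with several probe sets the brightest was kept, leaving 24011 genes. Differences are HSC-enriched minus Lin+ means, fitted across all genes with limma 3.58.1 (lmFit, eBayes; R 4.3.3) without covariates or a filter, and called at a Benjamini-Hochberg adjusted p under 0.05 over all genes. The fit was run on simulated data whose planted shifts were larger than the differences of the called members. That run therefore does not cover calls of their size. Exact permutation tests were two-sided over 70 assignments. Promoter windows came from RefSeq (GRCm38.p6), with 9 of 10 members matched. Plots used Python 3.11.15 and matplotlib 3.10.9.

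The members, the 9 pathway lists, the 11 marker lists, the tests and the alternatives were chosen with earlier results of these data known. Named besides the members were all ligands, receptors and binding proteins measured. In each other list, up to 3 called rises, up to 3 called falls and the 2 brightest genes not called were named, with the 3 genes nearest in pattern to the members of largest called rise and fall. Of 96 marker entries 88 were measured, and list entries without a value were not analysed here. The number of arrays limits the precision.

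The HSC, gate antigen, megakaryocyte, mesenchymal and endothelial lists had 8, 3, 4, 1 and 2 genes higher and 0, 1, 0, 2 and 1 lower in HSC-enriched cells. The neutrophil, monocyte, macrophage, B and plasma cell, T and NK cell and erythroid lists had 0 higher and 11, 7, 8, 7, 7 and 5 lower. The gate antigens were used in the sort and are no independent result.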

Additional observations from a re-analysis of the deposited data

Results flagged for a closer look

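Of 168 sets of 4 arrays (84 genes in each group), 9 held 1 array farther from the others than Dixon's test allows at the 95% level, and chance gives about 1 in 20. Among the 10 members, Irs2 on HSC-enriched replicate 3 stood high at 8.70, with the next array at 8.43, and Igfbp3 on the same array stood low at 4.82, with the next at 5.04, under the background guide. The other 7 were Igf2r low at 6.39 and Socs1 high at 7.27 on HSC-enriched replicate 3, Akt1 and Mtor low at 7.71 and 7.51 on HSC-enriched replicate 4, Ccn2 low at 5.23 on HSC-enriched replicate 2, Pdpk1 low at 8.16 on HSC-enriched replicate 1, and Pappa high at 5.14 on Lin+ replicate 3. The single-array differences of Igfbp7 did not pass the same rule, since its 4 HSC-enriched values were spread.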

How the results depend on the processing

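Under the alternatives of the fit, at most 19 per member, the directions of Igf1r, Igfbp4 and Irs1 did not change. Their differences were 0.43 to 0.65, 0.67 to 1.02 and -0.64 to -0.49, and Irs1 had no value under the filter at the median. Leaving out each of the 8 arrays in turn ended none of these 3 calls: 2 members were called higher and 1 lower each time, with 3233 to 3640 genes higher and 2688 to 2933 lower over all genes, and 12 to 15 pathway genes higher and 12 to 14 lower. The members called higher numbered 1 with the replicate block (Igf1r adjusted p = 0.057, limma), 1 against a 1.2-fold null (Igf1r 0.21) and 0 without HSC-enriched replicates 1 and 3, a setting chosen after seeing the data. The members called lower numbered 0 against the 1.2-fold null (Irs1 0.088), 0 without HSC-enriched replicates 3 and 4, and 0 with the filter at the median, which took Irs1 out and left 6 members. The pathway genes called lower numbered 5 against the 1.2-fold null and 9 without HSC-enriched replicates 1 and 3, and the genes higher over all numbered 2141 against the 1.2-fold null. Both settings that drop a pair of arrays test fewer samples. No member gained a limma call, while the exact permutation test gave p = 0.029 for Irs2. That is the smallest p this test can give for 4 against 4 arrays, and it was not adjusted. Any gene without overlap reaches it, as 28.9% of all genes do, so it adds no call for Irs2. The labels number the replicates in both groups and do not say whether same-numbered samples were paired. Same-numbered arrays correlated at -0.15, 0.06, 0.03 and -0.10 in their deviations from the group means. Such values cannot settle whether samples were paired, since paired samples need not deviate alike. The replicate block therefore stays among the alternatives. No detection calls come with the values used here, and for Irs1, Igfbp3, Igfbp5 and Igfbp6 signal near background limits what the differences can show.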
